A study of Mus musculus with 12 samples.

Results

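The response to doxorubicin of mouse embryonic stem cells without p53 was examined in poly(A)-selected RNA, across all genes with enough counts to test. The libraries used were chosen by their genotype and treatment labels and are 4 of the 12 in the series. p53 knockout (p53 KO) cells given doxorubicin make up 2 of them, and p53 KO cells given vehicle the other two. Each group holds the lines numbered 13 and 46 in the headers of the count table, so each drug-treated library has a vehicle-treated partner from the same line. All cells are E14 mouse embryonic stem cells, kept on gelatin in a serum-containing 2i and LIF medium, which adds inhibitors of MEK and GSK3. The treated cells had 1 uM doxorubicin for 6 h before a change to drug-free medium. The vehicle cells had DMSO for 6 h before the change. Wild-type E14 cells given the same treatments, with 2 libraries for each treatment, are used below to show where the p53 KO response differs. These libraries and those of Dux knockout (Dux KO) cells given the same treatments also enter the gene filter and the scaling. The wild-type libraries enter the estimate of the spread as well, whereas the Dux KO libraries leave no residual degrees of freedom for it. The p53 KO p-values and SEs therefore rest in part on cells outside the 4 libraries. Fitted alone, the p53 KO libraries gave 23041 genes to test, against 28643. The sources used here do not give the kind of p53 edit, whether each line is 1 clone, or the time spent in drug-free medium. The question is which part of the response to DNA damage does not need p53.

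Doxorubicin inserts into DNA and traps topoisomerase II on it, which leaves broken ends. In cells that have p53, this transcription factor then drives genes of cell-cycle arrest and cell death. Other routes do not pass through p53: the kinase ATM can activate NF-kB, displaced DNA or RNA can trigger cytosolic sensors, and these sensors lead to interferon and to interferon-stimulated genes. Pluripotent cells are known for a weak interferon response.

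Total counts were 26838781 and 23270358 in the drug-treated p53 KO libraries, against 30791483 and 32807053 in the vehicle-treated ones, in each case for line 13 and then line 46. This order of the lines is kept throughout. Levels are CPM (counts scaled to a common library size with TMM factors), not corrected for gene length, and changes are doxorubicin minus vehicle on the log2 scale, fitted within lines. The targeted gene, Trp53 (ENSMUSG00000059552, chr11:69580359-69591873, build GRCm38), had 95.5 and 42.6 CPM with doxorubicin, against 72.5 and 39.9 CPM with vehicle, in p53 KO cells, and 135 and 133 CPM with doxorubicin, against 193 and 159 CPM with vehicle, in wild-type cells. Its RNA was thus lower in the p53 KO libraries than in the wild-type ones, but not absent, and it did not pass the test for a change with drug (log2 change 0.25 ± 0.12 (SE), edgeR adjusted p = 0.104). Markers of embryonic stem cells summed to 3018 and 2443 CPM with doxorubicin, against 4795 and 4687 CPM with vehicle, and 8 of 9 passed the test as falls. The 7 fibroblast markers summed to 10.4 and 10.1 CPM with doxorubicin, against 5.92 and 6.19 CPM with vehicle, with Dcn at 0 counts in all 4 libraries. A wider fibroblast list of 12 genes, which includes Fn1 and Vim, summed to 903.5 and 1641 CPM with doxorubicin, against 755.6 and 1449 CPM with vehicle, over its 9 tested genes. The 8 leukocyte markers summed to 27.6 and 23.3 CPM with doxorubicin, against 19.3 and 18.6 CPM with vehicle. The 4 germline markers were higher, at 154 and 264 CPM with doxorubicin, against 169 and 399.5 CPM with vehicle, most of it from Dazl. The part of other cell types in the results was not tested. Only 2 libraries stand behind each group. The p-values measure a spread whose residual degrees of freedom come from the p53 KO and wild-type libraries, not from all 11 libraries of the fit. In bulk RNA, fewer cells of a kind and less RNA per cell cannot be told apart.

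Of 28643 genes tested, 6180 (21.6%) were called higher with doxorubicin and 4696 (16.4%) lower, 38.0% in either direction, at an adjusted p under 0.05 in edgeR's quasi-likelihood test. Among genes beyond 1 on the log2 scale the split was more uneven, with 3808 rises (13.3% of genes tested) and 842 falls (2.94%). The median called rise was 1.31 and the median called fall -0.639. Both lines had the sign of the call in 98.9% of the rises and 99.98% of the falls. Without a term for the line, 2668 rises and 2318 falls were called, and all but 1 of these were among the calls above. The split also depends on scaling. With library totals in place of TMM factors, 10778 genes were called higher and 1993 lower, and the median change over all genes moved to 0.519, against 0.185 with TMM. Fitted on the p53 KO libraries alone, over 23041 genes, 4837 rose and 5106 fell, and DESeq2 on all libraries of the fit called 4856 and 4742. The excess of rises over falls was thus not kept in every fit. All changes below are relative to TMM scaling.

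Rises and falls came from different ranges of expression. Among the 9750 genes below 1 CPM on average in the 4 libraries, 18% rose and 0.697% fell. Rises were most frequent among the 7304 genes of 1 to 10 CPM, of which 33.4% rose and 7.6% fell. Counts of rises in lists of genes at that level stand against that share of rises. Among the 2434 genes of at least 100 CPM, 6.2% rose and 61.1% fell, and counts of falls in lists of highly expressed genes stand against that share. Of the rises, 42.2% were below 1 CPM in vehicle cells, and their median level was 4.66 CPM with doxorubicin, against 1.73 CPM with vehicle. Called falls had a median of 45.4 CPM with doxorubicin, against 67.4 CPM with vehicle. Genes with at least 1 count numbered 32124 and 32183 with doxorubicin, against 27926 and 28944 with vehicle. The drug-treated libraries held fewer total counts, and the part of depth in this shift was not tested. Across genes, the changes in line 13 and line 46 had a Pearson r of 0.594 over all genes and 0.765 over the 16654 genes of at least 2 CPM. Genes within a library share its depth and are not independent, so these r are descriptions. Statements below that the groups of a gene did not overlap are also descriptions. They concern genes chosen among called ones, and the share of all genes without overlap was not counted.

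**Figure D1:**
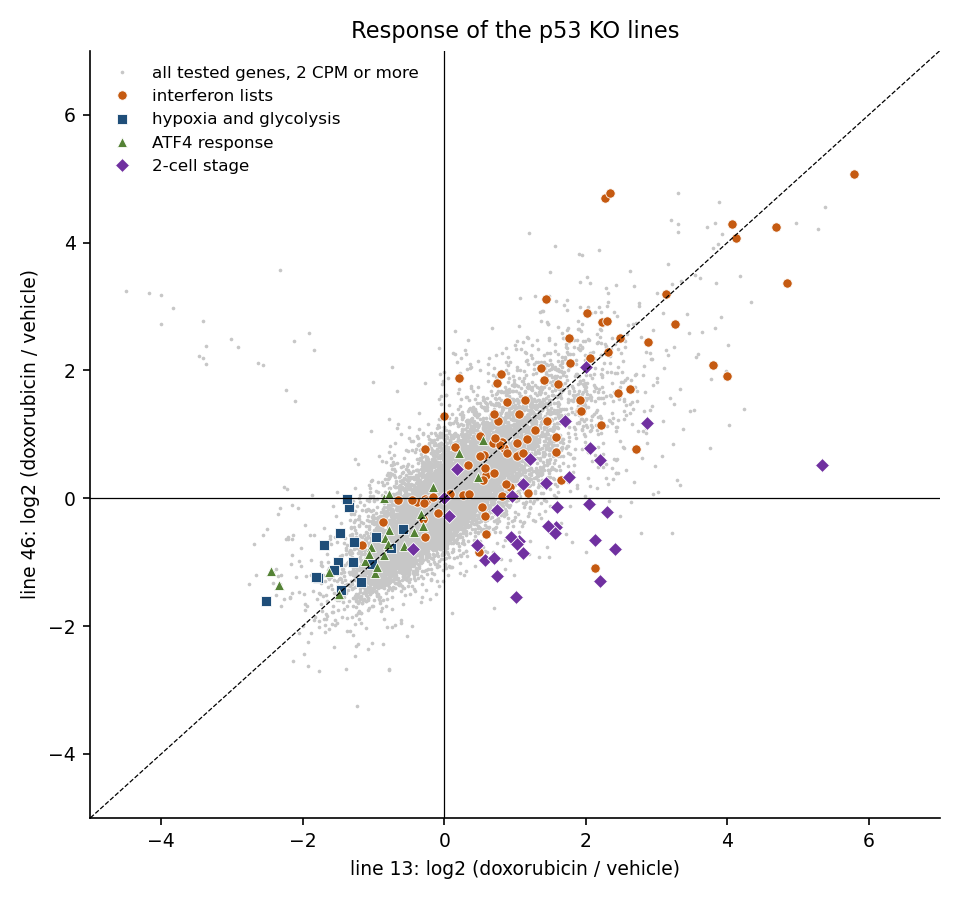
Change with doxorubicin in line 13 (x axis) and line 46 (y axis), as log2 of drug over vehicle, for p53 KO cells. Grey points are all tested genes of at least 2 CPM, and colours mark the interferon lists, the hypoxia and glycolysis list, the ATF4 list and the 2-cell list. Interferon genes lie mostly above 0 in both lines, hypoxia and ATF4 genes mostly below 0 in both, and 2-cell genes lie mostly above 0 in line 13 but on both sides of 0 in line 46.

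Interferon-stimulated genes rose as a group. Of 101 genes in 5 lists, 94 had enough counts to test, and 55 rose and 3 fell with doxorubicin, against 21.6% and 16.4% of all genes. The median of the 94 was 1.08, against 0.185 for all genes. In line 13, 79 of the 94 were higher with drug, and in line 46, 77. Without a term for the line 30 rose and 1 fell, and with DESeq2 46 rose and 3 fell. Of the 94, 51 overlap another annotated gene. The strand setting of the counting is not given, so reads of overlapping genes are treated as not told apart. With all overlapping genes left out, 43 remained, of which 18 rose and 2 fell.

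Sensors of foreign or displaced nucleic acid had 12 rises and no fall among 16 tested of 18, with a median of 1.01. Without the line term 5 rose. The median was 1.00 in line 13 and 0.90 in line 46. Zbp1 (ENSMUSG00000027514, chr2:173206612-173218923), which binds left-handed DNA and RNA and can start necroptosis, stood at 25.8 and 7.14 CPM with doxorubicin, against 1.39 and 0.333 CPM with vehicle (log2 change 4.28 ± 0.21 (SE), edgeR adjusted p = 8.52e-07). Both drug-treated libraries lay above both vehicle libraries, and line 13 was higher than line 46 in either condition. Oas2 (ENSMUSG00000032690, chr5:120730333-120749853), an enzyme that makes oligoadenylates from ATP when it meets paired RNA strands, stood at 17.8 and 12.7 CPM with doxorubicin, against 5.78 and 3.60 CPM with vehicle (log2 change 1.72 ± 0.21 (SE), edgeR adjusted p = 8.42e-05). Ddx58 (ENSMUSG00000040296, chr4:40203773-40239828) encodes RIG-I, a helicase that recognises viral RNA ends, and stood at 43.4 and 45.5 CPM with doxorubicin, against 15.9 and 19.6 CPM with vehicle (log2 change 1.33 ± 0.13 (SE), edgeR adjusted p = 2.30e-05). The groups did not overlap for either gene. Tmem173 encodes STING, the adaptor of the DNA sensor cGAS. It had 62.1 and 19.9 CPM with doxorubicin, against 15.3 and 2.60 CPM with vehicle (log2 change 2.42 ± 0.22 (SE), edgeR adjusted p = 1.48e-05), with drug-treated libraries above vehicle libraries but a gap between the lines of similar size, and it lost its call without the line term. Eif2ak2 encodes PKR, which stops translation when it binds paired RNA strands, and stood at 52.9 and 58.3 CPM with doxorubicin, against 35.9 and 36.4 CPM with vehicle (log2 change 0.62 ± 0.11 (SE), edgeR adjusted p = 7.67e-04).

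Effectors of the interferon response had 16 rises and no fall among 29 tested of 33, with a median of 1.48. Without the line term 7 rose. The median was 1.28 in line 13 and 0.79 in line 46. Parp14 (ENSMUSG00000034422, chr16:35832874-35871544), an ADP-ribosyltransferase, stood at 23.2 and 34.6 CPM with doxorubicin, against 2.34 and 5.13 CPM with vehicle (log2 change 3.01 ± 0.25 (SE), edgeR adjusted p = 9.65e-06). Dtx3l and Parp9 encode the partners in a ubiquitin ligase complex that acts at damaged chromatin and in interferon signalling. Dtx3l had 25.0 and 21.2 CPM with doxorubicin, against 9.65 and 5.09 CPM with vehicle (log2 change 1.70 ± 0.23 (SE), edgeR adjusted p = 1.66e-04). Parp9 had 39.9 and 28.4 CPM with doxorubicin, against 19.1 and 11.4 CPM with vehicle (log2 change 1.19 ± 0.15 (SE), edgeR adjusted p = 9.84e-05). All 3 genes were higher in both drug-treated libraries than in either vehicle library. Ifi35 had 15.1 and 14.3 CPM with doxorubicin, against 8.41 and 8.26 CPM with vehicle (log2 change 0.82 ± 0.17 (SE), edgeR adjusted p = 0.00315). Xaf1, an antagonist of the caspase inhibitor XIAP, had 163 and 73.8 CPM with doxorubicin, against 66.8 and 35.3 CPM with vehicle (log2 change 1.18 ± 0.12 (SE), edgeR adjusted p = 2.07e-05), and it lost its call without the line term. Isg15, a ubiquitin-like modifier, had 4.86 and 0.928 CPM with doxorubicin, against 0.0731 and 0 CPM with vehicle, from 140 and 26 counts against 2 and 0 counts (log2 change 6.24 ± 0.87 (SE), edgeR adjusted p = 2.69e-04). Mx2, a GTPase that blocks viruses, did not reach 1 CPM in any p53 KO library. Whole-list sums were 674.6 and 519 CPM with doxorubicin, against 414 and 423 CPM with vehicle.

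Interferon-inducible GTPases, which attack the vacuoles of intracellular microbes, had a median of 3.64, and 11 of 14 rose. All 14 were tested. Vehicle levels were under 6 CPM for every GTPase named below. Irgm2 (ENSMUSG00000069874, chr11:58199618-58222782) stood at 27.4 and 27.5 CPM with doxorubicin, against 5.78 and 3.995 CPM with vehicle (log2 change 2.51 ± 0.17 (SE), edgeR adjusted p = 3.97e-06). Igtp (ENSMUSG00000078853, chr11:58199556-58207591), which encodes IRGM3, stood at 11.3 and 11.99 CPM with doxorubicin, against 2.23 and 1.67 CPM with vehicle (log2 change 2.59 ± 0.21 (SE), edgeR adjusted p = 7.93e-06). Irgm1 stood at 12.6 and 11.8 CPM with doxorubicin, against 2.41 and 0.333 CPM with vehicle (log2 change 3.42 ± 0.50 (SE), edgeR adjusted p = 2.78e-04). For these 3 genes, the lines were close with drug and every drug-treated library lay above every vehicle library. The spans of Igtp and Irgm2 overlap, so reads may be shared between them and their rises are not separate results. Tgtp1 stood at 13.6 and 5.50 CPM with doxorubicin, against 0.146 and 0.0666 CPM with vehicle, from 391 and 154 counts against 4 and 2 counts (log2 change 6.43 ± 0.42 (SE), edgeR adjusted p = 2.82e-06). Its near-identical neighbour Tgtp2 had 4.37 and 1.78 CPM with doxorubicin, against 0.0731 and 0 CPM with vehicle, and reads of the pair cannot be assigned to either with certainty. Gbp7 had 4.02 and 8.35 CPM with doxorubicin, against 0.146 and 0.333 CPM with vehicle (log2 change 4.68 ± 0.47 (SE), edgeR adjusted p = 2.27e-05). Gbp2 had 6.04 and 7.64 CPM with doxorubicin, against 1.17 and 0.200 CPM with vehicle (log2 change 3.48 ± 0.56 (SE), edgeR adjusted p = 6.59e-04). In 10 of the 14 genes the span overlaps that of another gene. With all overlapping genes left out, 4 remained, of which 2 rose and none fell.

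The promoters of 5 of the GTPases named above and of B2m are shown because they hold the core of the interferon-stimulated response element, which the interferon factors are known to bind. Each run is the 200 bases before the start of the RefSeq transcript (GRCm38.p6), 5' to 3' on the gene's strand, with matches to GAAA, any 2 bases and GAAA, searched on both strands, in capitals. The positions are chr11:48992247-48992446 (minus strand) for Tgtp1, chr11:58214777-58214976 (plus) for Irgm2, chr11:58199356-58199555 (plus) for Igtp, chr3:142530136-142530335 (plus) for Gbp7, chr11:49064213-49064412 (minus) for Tgtp2 and chr2:122147487-122147686 (plus) for B2m.
Tgtp1: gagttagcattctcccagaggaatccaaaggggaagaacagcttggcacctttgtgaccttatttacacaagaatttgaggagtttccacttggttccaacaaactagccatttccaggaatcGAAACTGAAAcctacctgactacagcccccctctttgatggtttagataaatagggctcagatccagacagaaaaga
Irgm2: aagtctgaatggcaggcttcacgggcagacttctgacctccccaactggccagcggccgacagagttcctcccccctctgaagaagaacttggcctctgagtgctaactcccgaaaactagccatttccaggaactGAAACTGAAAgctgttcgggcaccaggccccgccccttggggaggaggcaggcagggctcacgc
Igtp: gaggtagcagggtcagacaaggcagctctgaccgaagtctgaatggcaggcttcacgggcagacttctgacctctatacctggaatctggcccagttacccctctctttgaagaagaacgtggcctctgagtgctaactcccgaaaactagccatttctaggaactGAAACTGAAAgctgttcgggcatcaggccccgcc
Gbp7: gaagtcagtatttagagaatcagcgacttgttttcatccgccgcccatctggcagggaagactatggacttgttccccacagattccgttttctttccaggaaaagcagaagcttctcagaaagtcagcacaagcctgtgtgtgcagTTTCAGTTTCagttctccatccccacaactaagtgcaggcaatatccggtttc
Tgtp2: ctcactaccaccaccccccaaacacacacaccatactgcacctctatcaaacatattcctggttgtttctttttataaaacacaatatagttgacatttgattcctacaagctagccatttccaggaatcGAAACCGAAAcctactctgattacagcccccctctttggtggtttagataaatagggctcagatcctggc
B2m: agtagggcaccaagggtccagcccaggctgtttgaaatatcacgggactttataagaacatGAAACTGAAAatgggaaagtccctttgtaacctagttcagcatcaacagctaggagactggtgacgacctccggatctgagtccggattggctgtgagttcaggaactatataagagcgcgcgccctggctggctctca
In Gbp7 the match lies on the opposite strand and so reads in reverse. A match was present in 20 of the 45 promoters (44.4%) of interferon-list genes that rose, in 32 of the 85 (37.6%) of all tested interferon-list genes, in 3.46% of the 5291 promoters of all genes that rose, and in 3.44% of all 32851 promoters of the same 300-base window. Over all genes that rose, this element was therefore as frequent as in promoters at large. The AP-1 element TGANTCA was found in 7.28% of promoters of genes that rose, 4.32% of those of genes that fell, 6.5% of those of tested genes that were not called and 7.81% of all promoters. GGGCGG, the core that SP factors bind, was found in 63.7% of promoters of genes that fell, 46.6% of those of genes that rose, 47.6% of those of tested genes that were not called and 35.7% of all promoters. These are shares of promoters that hold the letters, with no test.

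Interferon itself was scarcely detected. Ifnb1, the usual product of the sensors, had 0 counts in all 4 p53 KO libraries, which allows a level of up to 0.104 and 0.107 CPM with doxorubicin, against 0.11 and 0.0999 CPM with vehicle (the limit is 3 counts and covers counting error only). This limit takes each count as an independent fragment, which need not hold here, so the true limit may be higher. The 18 type I interferon genes together had 8 and 8 counts with doxorubicin, against 2 and 1 with vehicle, most of them from Ifnk, a keratinocyte interferon. The signalling chain moved little: of 20 tested of 21, 6 rose and 3 fell, with a median of 0.14, and without the line term 3 rose and 1 fell. The 6 rises and 3 falls are 30% and 15% of that list, against 21.6% and 16.4% of all genes. Stat2, a factor that carries the signal to the nucleus, had 66.0 and 72.8 CPM with doxorubicin, against 38.3 and 40.8 CPM with vehicle (log2 change 0.81 ± 0.09 (SE), edgeR adjusted p = 6.01e-05). Tyk2, a receptor kinase, had 60.0 and 47.9 CPM with doxorubicin, against 40.1 and 34.4 CPM with vehicle (log2 change 0.53 ± 0.09 (SE), edgeR adjusted p = 7.77e-04). Socs3, an inhibitor of cytokine receptors that LIF itself induces through STAT3, fell and had 78.9 and 68.0 CPM with doxorubicin, against 177 and 113 CPM with vehicle (log2 change -0.95 ± 0.11 (SE), edgeR adjusted p = 5.13e-05).

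Genes of antigen presentation had 10 rises and no fall among 15, all tested, with a median of 0.95, and 5 rises without the line term. B2m (ENSMUSG00000060802, chr2:122147686-122153083), the invariant light chain of class I molecules, stood at 31.8 and 27.8 CPM with doxorubicin, against 15.6 and 15.2 CPM with vehicle (log2 change 0.95 ± 0.13 (SE), edgeR adjusted p = 1.61e-04). Tap1, a subunit of the pump that loads peptides, stood at 4.99 and 2.28 CPM with doxorubicin, against 0.219 and 0.533 CPM with vehicle (log2 change 3.19 ± 0.34 (SE), edgeR adjusted p = 3.26e-05). Tapbp, which holds the pump to the class I molecule, had 93.4 and 67.2 CPM with doxorubicin, against 50.6 and 41.0 CPM with vehicle (log2 change 0.80 ± 0.10 (SE), edgeR adjusted p = 1.11e-04). Drug-treated libraries lay above vehicle libraries without overlap for all 3. The heavy chain H2-K1 had 69.0 and 47.9 CPM with doxorubicin, against 40.9 and 13.7 CPM with vehicle (log2 change 1.26 ± 0.22 (SE), edgeR adjusted p = 8.96e-04), where line 13 with vehicle lay near line 46 with drug, and this call was lost without the line term. H2-K1 and H2-D1 are near-copies of each other, so the share of each is uncertain.

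**Figure D2:**
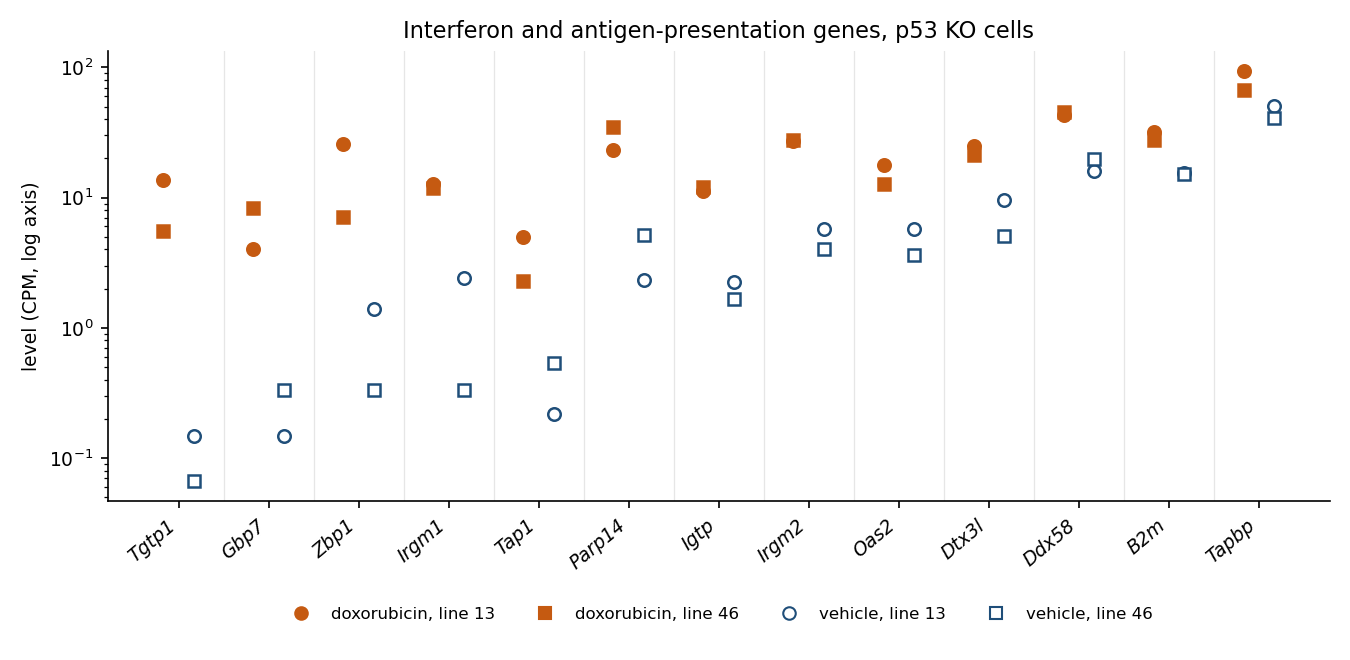
Level (CPM, log axis) of 13 interferon-stimulated and antigen-presentation genes in p53 KO cells. For each gene the drug-treated libraries (filled) are left of the vehicle libraries (open), with a circle for line 13 and a square for line 46. Every gene shown has both filled points above both open points, from Tgtp1, at 13.6 and 5.50 CPM against 0.146 and 0.0666 CPM, to Tapbp, at 93.4 and 67.2 CPM against 50.6 and 41.0 CPM.

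Targets and parts of NF-kB had 10 rises and 1 fall among 20 tested of 25, with a median of 0.79. These are 50% and 5% of the list, against 21.6% and 16.4% of all genes. Among genes of 1 to 10 CPM the shares were 33.4% and 7.6%. Icam1 (ENSMUSG00000037405, chr9:21015985-21028817), an adhesion molecule and standard NF-kB target, was the strongest in absolute terms and stood at 283 and 303 CPM with doxorubicin, against 96.2 and 158 CPM with vehicle (log2 change 1.25 ± 0.13 (SE), edgeR adjusted p = 2.43e-05). Traf1, an adaptor of TNF receptors, had 9.40 and 7.71 CPM with doxorubicin, against 2.27 and 2.33 CPM with vehicle (log2 change 1.89 ± 0.22 (SE), edgeR adjusted p = 5.35e-05). Nfkb2, the p100 subunit, had 29.9 and 24.8 CPM with doxorubicin, against 15.3 and 11.9 CPM with vehicle (log2 change 1.01 ± 0.16 (SE), edgeR adjusted p = 4.33e-04). In all 3 the drug-treated libraries lay above the vehicle ones. Csf1, a growth factor of macrophages, had 1.25 and 1.07 CPM with doxorubicin, against 0.292 and 0.0666 CPM with vehicle (log2 change 2.73 ± 0.47 (SE), edgeR adjusted p = 7.97e-04). Nfkbia, the inhibitor that NF-kB induces to end its own activity, had 21.7 and 26.5 CPM with doxorubicin, against 13.3 and 18.6 CPM with vehicle (log2 change 0.61 ± 0.14 (SE), edgeR adjusted p = 0.00587). Its change was smaller, and its call was lost without the line term, under which 5 of the list rose and none fell.

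Targets of TGF-beta, Nodal, BMP and YAP signalling also rose in part. In the list of 18 such genes, 17 were tested, 8 rose and 3 fell, with a median of 0.99. The rises are 47.1% of the list and the falls 17.65%, against 21.6% and 16.4% of all genes. For genes of 1 to 10 CPM these shares were 33.4% and 7.6%. Ccn2 (ENSMUSG00000019997, chr10:24595442-24598683) encodes the matricellular protein CTGF, a target of YAP and of TGF-beta, and stood at 51.4 and 56.2 CPM with doxorubicin, against 7.38 and 9.72 CPM with vehicle (log2 change 2.66 ± 0.13 (SE), edgeR adjusted p = 8.52e-07). The related Ccn1 had 18.1 and 33.3 CPM with doxorubicin, against 3.73 and 10.4 CPM with vehicle (log2 change 1.93 ± 0.15 (SE), edgeR adjusted p = 5.83e-06). Id2, a BMP target that blocks basic helix-loop-helix factors, had 10.9 and 20.8 CPM with doxorubicin, against 4.83 and 5.39 CPM with vehicle (log2 change 1.57 ± 0.19 (SE), edgeR adjusted p = 8.44e-05). For these 3 the groups did not overlap. Smad7, the feedback inhibitor of the pathway, moved the other way and had 19.98 and 22.9 CPM with doxorubicin, against 50.4 and 34.3 CPM with vehicle (log2 change -0.96 ± 0.17 (SE), edgeR adjusted p = 0.00104). Without the line term, 3 rose and 1 fell. The median was 0.25 on line 13 alone and 1.51 on line 46 alone.

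The Nodal antagonists rose with Nodal. Lefty1 (ENSMUSG00000038793, chr1:180935022-180938400) stood at 37.1 and 33.1 CPM with doxorubicin, against 8.88 and 3.13 CPM with vehicle (log2 change 2.68 ± 0.28 (SE), edgeR adjusted p = 2.72e-05). Lefty2 (ENSMUSG00000066652, chr1:180893108-180899103) stood at 203 and 112 CPM with doxorubicin, against 73.0 and 28.0 CPM with vehicle (log2 change 1.74 ± 0.13 (SE), edgeR adjusted p = 5.83e-06). Nodal, the ligand that both antagonise, had 50.8 and 40.2 CPM with doxorubicin, against 30.5 and 17.0 CPM with vehicle (log2 change 0.98 ± 0.17 (SE), edgeR adjusted p = 8.36e-04). Each was higher with drug in both lines, and line 13 was the higher line in each condition. They belong to a list of primed-state and primitive-streak genes, of which 19 of 20 were tested. Of these 9 rose and none fell, with a median of 0.56, and 5 rose without the line term. The 9 rises are 47.4% of the list, against 21.6% of all genes and 33.4% of genes of 1 to 10 CPM. Otx2, a factor of the primed state, had 11.8 and 34.4 CPM with doxorubicin, against 6.29 and 16.7 CPM with vehicle (log2 change 0.98 ± 0.22 (SE), edgeR adjusted p = 0.00408), and Dnmt3b, a DNA methyltransferase of that state, had 167 and 108 CPM with doxorubicin, against 107 and 77.8 CPM with vehicle (log2 change 0.56 ± 0.10 (SE), edgeR adjusted p = 0.00114). For Otx2 the groups overlapped, with line 46 the higher line in both conditions. The calls of both were lost without the line term.

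Part of the genes of other lineages rose as well. Of 18 primitive endoderm genes, all tested, 8 rose and 2 fell, and of 19 trophectoderm genes tested of 20, 10 rose and 4 fell. The rises are 44.4% and 52.6% of these lists, against 21.6% of all genes and 33.4% of genes of 1 to 10 CPM. The falls are 11.1% and 21.05%, against 16.4% of all genes. Dab2, an endocytic adaptor of primitive endoderm, had 10.96 and 11.9 CPM with doxorubicin, against 3.73 and 3.26 CPM with vehicle (log2 change 1.71 ± 0.24 (SE), edgeR adjusted p = 2.02e-04), and Pdgfra, its receptor kinase marker, had 2.15 and 4.21 CPM with doxorubicin, against 0.512 and 1.40 CPM with vehicle (log2 change 1.77 ± 0.28 (SE), edgeR adjusted p = 3.87e-04). Gata2, a trophoblast and blood factor, had 12.3 and 25.4 CPM with doxorubicin, against 4.31 and 5.59 CPM with vehicle (log2 change 1.85 ± 0.28 (SE), edgeR adjusted p = 3.31e-04), and Rhox9, a placental homeobox gene, had 12.9 and 14.2 CPM with doxorubicin, against 4.17 and 6.19 CPM with vehicle (log2 change 1.41 ± 0.19 (SE), edgeR adjusted p = 1.75e-04). These levels lay well below those of the pluripotency genes in the same libraries. Pax6, a neural factor, had 11.1 and 6.67 CPM with doxorubicin, against 3.36 and 0.732 CPM with vehicle (log2 change 2.35 ± 0.35 (SE), edgeR adjusted p = 3.22e-04), whereas Ncam1, a neural adhesion molecule, fell and had 13.4 and 11.1 CPM with doxorubicin, against 37.4 and 20.8 CPM with vehicle (log2 change -1.21 ± 0.17 (SE), edgeR adjusted p = 1.71e-04). The neuroectoderm list as a whole had 2 rises and 2 falls among 10 tested of 12, or 20% each way, near the shares of all genes. With library totals the counts of rises and falls were 13 and 2 for trophectoderm and 9 and 0 for primitive endoderm. For trophectoderm they were 4 and 1 without the line term. The median of that list was 0.545 in line 13 and 1.0 in line 46.

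Most pluripotency genes fell. Among 24 naive-state genes, 3 rose and 15 fell, with a median of -0.53, and among 11 core genes 2 rose and 7 fell, with a median of -0.58. All of them were tested. The falls are 62.5% and 63.6% of these lists, against 16.4% of all genes and 61.1% of genes of at least 100 CPM. Nanog (ENSMUSG00000012396, chr6:122707489-122714633) stood at 591 and 350.1 CPM with doxorubicin, against 1193 and 956 CPM with vehicle (log2 change -1.23 ± 0.15 (SE), edgeR adjusted p = 7.86e-05). Zfp42, the marker known as REX1, stood at 279 and 123 CPM with doxorubicin, against 645 and 456 CPM with vehicle (log2 change -1.55 ± 0.14 (SE), edgeR adjusted p = 1.31e-05). Tet2, a dioxygenase that oxidises methylated DNA, stood at 57.6 and 50.9 CPM with doxorubicin, against 159.7 and 135 CPM with vehicle (log2 change -1.44 ± 0.09 (SE), edgeR adjusted p = 2.71e-06). The groups did not overlap for any of the 3. Pou5f1, which encodes OCT4, had 696 and 599 CPM with doxorubicin, against 1001 and 994 CPM with vehicle (log2 change -0.63 ± 0.10 (SE), edgeR adjusted p = 6.12e-04), and Sox2 had 127 and 158 CPM with doxorubicin, against 188 and 293 CPM with vehicle (log2 change -0.72 ± 0.11 (SE), edgeR adjusted p = 3.43e-04). Stat3, which carries the LIF signal, went against the list and had 131 and 132 CPM with doxorubicin, against 91.6 and 84.2 CPM with vehicle (log2 change 0.58 ± 0.09 (SE), edgeR adjusted p = 3.86e-04). Lin28a, an RNA-binding protein, did so too, with 112 and 148 CPM with doxorubicin, against 76.5 and 75.2 CPM with vehicle (log2 change 0.77 ± 0.15 (SE), edgeR adjusted p = 0.00187). The change of Lin28a was larger in line 46. With library totals the naive list kept 10 falls and had 5 rises, and the medians stayed below 0 (-0.193 naive, -0.239 core). In the deposited FPKM fitted with limma, 5 naive-state genes fell, and Pou5f1 was not called.

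The canonical p53 targets moved in both directions without p53. Of 40, all tested, 14 rose and 6 fell, with a median of 0.08, which is below that of all genes. The rises are 35.0% of the list, against 21.6% of all genes. The falls are 15.0%, near the 16.4% of all genes. Plk2, a kinase of the centrosome cycle, stood at 30.3 and 7.78 CPM with doxorubicin, against 2.34 and 1.198 CPM with vehicle (log2 change 3.31 ± 0.20 (SE), edgeR adjusted p = 2.50e-06). Ephx1, an epoxide hydrolase, stood at 12.7 and 6.14 CPM with doxorubicin, against 1.61 and 1.198 CPM with vehicle (log2 change 2.71 ± 0.16 (SE), edgeR adjusted p = 2.50e-06). Abhd4, a lipase, stood at 56.7 and 33.0 CPM with doxorubicin, against 18.6 and 17.0 CPM with vehicle (log2 change 1.28 ± 0.14 (SE), edgeR adjusted p = 4.18e-05). Trp53inp1, which acts in autophagy and death, had 71.2 and 58.2 CPM with doxorubicin, against 41.0 and 31.2 CPM with vehicle (log2 change 0.85 ± 0.10 (SE), edgeR adjusted p = 6.60e-05). For all 4 the groups did not overlap. Line 13 was the higher line in each drug-treated pair. In contrast, Cdkn1a (ENSMUSG00000023067, chr17:29090976-29100727), the inhibitor p21 that arrests the cell cycle, fell and had 47.0 and 26.2 CPM with doxorubicin, against 76.3 and 59.9 CPM with vehicle (log2 change -0.94 ± 0.11 (SE), edgeR adjusted p = 7.69e-05). Bax, the pore-forming death effector, also fell and had 95.9 and 69.9 CPM with doxorubicin, against 169 and 135 CPM with vehicle (log2 change -0.88 ± 0.09 (SE), edgeR adjusted p = 2.89e-05). Mdm2, the ligase that degrades p53, had 69.8 and 52.4 CPM with doxorubicin, against 44.7 and 49.2 CPM with vehicle (log2 change 0.37 ± 0.13 (SE), edgeR adjusted p = 0.0374), a small change whose call was lost without the line term. In line 13, 27 of the 40 were higher with drug, with a median of 0.31. In line 46, 21 were higher, with a median of 0.04. Without the line term 6 rose and 3 fell. Of the family, Trp73, whose protein binds the same sites, had 3.61 and 2.00 CPM with doxorubicin, against 1.17 and 1.33 CPM with vehicle (log2 change 1.12 ± 0.24 (SE), edgeR adjusted p = 0.00355). The change of Trp73 was larger in line 13. Mdm4, a partner of MDM2, had 65.8 and 80.9 CPM with doxorubicin, against 134 and 149 CPM with vehicle (log2 change -0.95 ± 0.09 (SE), edgeR adjusted p = 2.11e-05).

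Genes of the 2-cell stage, which Dux switches on in wild-type cells, depended on the line. Of 34 tested of 35, 10 rose and 1 fell. These are 29.4% and 2.94% of the list, against 21.6% and 16.4% of all genes. In line 13, 32 were higher with drug and the median was 1.32. In line 46, 12 were higher and the median was -0.25. With both lines and no line term 2 rose and 1 fell. Tcstv3 changed more in line 13 and had 2.60 and 0.357 CPM with doxorubicin, against 0.548 and 0.167 CPM with vehicle (log2 change 1.94 ± 0.38 (SE), edgeR adjusted p = 0.00225). Zfp750 did likewise, with 3.29 and 0.428 CPM with doxorubicin, against 0.365 and 0.133 CPM with vehicle (log2 change 2.82 ± 0.36 (SE), edgeR adjusted p = 1.07e-04). Both were higher with drug in line 46 as well, unlike most of the list, and were below 1 CPM there. Many members belong to families of near-identical copies, so counts of single genes are uncertain.

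Death and necroptosis genes gave 10 rises and 6 falls among 26 tested of 29 (38.5% and 23.1%, against 21.6% and 16.4% of all genes). Mlkl, which executes necroptosis downstream of ZBP1, had 5.45 and 1.86 CPM with doxorubicin, against 0.804 and 0.0666 CPM with vehicle (log2 change 3.19 ± 0.38 (SE), edgeR adjusted p = 6.36e-05). Cidea, a lipid-droplet protein of the CIDE family, had 24.2 and 22.9 CPM with doxorubicin, against 3.95 and 6.13 CPM with vehicle (log2 change 2.25 ± 0.27 (SE), edgeR adjusted p = 6.98e-05). Casp8, the initiator caspase of death receptors, had 7.63 and 8.71 CPM with doxorubicin, against 4.46 and 4.53 CPM with vehicle (log2 change 0.86 ± 0.22 (SE), edgeR adjusted p = 0.00843). These 3 were higher with drug in both lines, though the change of Casp8 was the smallest of the 3. Mcl1, an inhibitor of mitochondrial death, fell and had 172 and 195 CPM with doxorubicin, against 245 and 385 CPM with vehicle (log2 change -0.74 ± 0.12 (SE), edgeR adjusted p = 5.64e-04). With library totals 15 of the list rose and 1 fell, and without the line term 4 rose and 2 fell.

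Immediate early genes rose in part. In the list of 31, 30 were tested, 12 rose and 5 fell, with a median of 0.27, and without the line term 6 rose and 1 fell. The falls are 16.67% of the tested genes, near the 16.4% of all genes. The rises are a larger share of the list than the 21.6% of all genes. Fos, part of AP-1, had 7.98 and 8.49 CPM with doxorubicin, against 3.14 and 3.995 CPM with vehicle (log2 change 1.21 ± 0.19 (SE), edgeR adjusted p = 3.74e-04), Egr1, a zinc finger factor, had 2.77 and 3.64 CPM with doxorubicin, against 0.658 and 0.333 CPM with vehicle (log2 change 2.71 ± 0.44 (SE), edgeR adjusted p = 5.24e-04), and Gadd45g, a stress adaptor of the p38 pathway, had 12.6 and 22.1 CPM with doxorubicin, against 1.24 and 4.20 CPM with vehicle (log2 change 2.79 ± 0.28 (SE), edgeR adjusted p = 2.30e-05). Groups did not overlap in any of these 3. Ier3, an early-response gene that restrains NF-kB and death, was among the largest falls of all protein-coding genes, with 12.2 and 7.17 CPM with doxorubicin, against 46.9 and 34.6 CPM with vehicle (log2 change -2.10 ± 0.18 (SE), edgeR adjusted p = 1.19e-05). Mxd4, an antagonist of MYC at its sites, had 7.53 and 6.92 CPM with doxorubicin, against 1.61 and 1.198 CPM with vehicle (log2 change 2.37 ± 0.18 (SE), edgeR adjusted p = 5.83e-06).

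The amino acid response fell. ATF4 drives genes of amino acid synthesis and import when translation is stressed, and of 24 such genes, all tested, 2 rose and 18 fell, with a median of -0.74. The falls are 75.0% of the list, against 16.4% of all genes and 61.1% of genes of at least 100 CPM. Atf4 itself (ENSMUSG00000042406, chr15:80255184-80257541) stood at 125 and 122 CPM with doxorubicin, against 256 and 206 CPM with vehicle (log2 change -0.90 ± 0.10 (SE), edgeR adjusted p = 4.23e-05). Asns, asparagine synthetase, stood at 463 and 388 CPM with doxorubicin, against 916 and 872 CPM with vehicle (log2 change -1.08 ± 0.10 (SE), edgeR adjusted p = 1.73e-05). Phgdh, the entry enzyme of serine synthesis, stood at 17.4 and 17.6 CPM with doxorubicin, against 48.9 and 50.1 CPM with vehicle (log2 change -1.50 ± 0.11 (SE), edgeR adjusted p = 5.57e-06). The vehicle libraries lay above the drug-treated ones in each case. Psat1, the next enzyme of that route, had 259 and 315 CPM with doxorubicin, against 562 and 625 CPM with vehicle (log2 change -1.05 ± 0.10 (SE), edgeR adjusted p = 1.41e-05). Pck2, the mitochondrial PEP carboxykinase, had 24.1 and 28.9 CPM with doxorubicin, against 67.7 and 82.2 CPM with vehicle (log2 change -1.50 ± 0.10 (SE), edgeR adjusted p = 2.71e-06). Ddit4, which inhibits mTORC1, had 33.3 and 65.1 CPM with doxorubicin, against 169 and 167 CPM with vehicle (log2 change -1.84 ± 0.18 (SE), edgeR adjusted p = 2.31e-05). Chac1, which degrades glutathione, had 7.77 and 8.56 CPM with doxorubicin, against 24.3 and 19.2 CPM with vehicle (log2 change -1.41 ± 0.19 (SE), edgeR adjusted p = 1.69e-04). The 18 falls became 14 without the line term and 14 with library totals, and with FPKM 10 or 11 of 21 fell.

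Chaperones and metallothioneins fell in part. In the list of 16 heat-shock and unfolded-protein genes 1 rose and 7 fell. The falls are 43.75% of this list and 44.4% of the redox list below. Over all genes 16.4% fell, and 61.1% of genes of at least 100 CPM. Hspa8, the constitutive HSC70, had 226 and 225 CPM with doxorubicin, against 496 and 669 CPM with vehicle (log2 change -1.35 ± 0.12 (SE), edgeR adjusted p = 1.32e-05). Hsp90aa1 had 1156 and 911 CPM with doxorubicin, against 2226 and 2343 CPM with vehicle (log2 change -1.15 ± 0.12 (SE), edgeR adjusted p = 3.41e-05), and Hsp90b1, its endoplasmic reticulum form, had 442 and 384 CPM with doxorubicin, against 840.1 and 839 CPM with vehicle (log2 change -1.03 ± 0.10 (SE), edgeR adjusted p = 2.58e-05). Vehicle libraries were higher without overlap. Among 18 redox genes 2 rose and 8 fell, led by the metal-binding Mt2 with 134 and 196 CPM with doxorubicin, against 306 and 474 CPM with vehicle (log2 change -1.24 ± 0.11 (SE), edgeR adjusted p = 1.21e-05). The medians of both lists turned above 0 with library totals (0.041 for chaperones, 0.172 for redox genes, against -0.291 and -0.163 with TMM), where 5 chaperone genes rose and 4 fell and 8 redox genes rose and 3 fell. Without the line term 4 chaperone genes and 3 redox genes fell, and none rose.

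Genes of hypoxia and glycolysis fell in nearly all cases. Of 17 genes, all tested, 16 fell and none rose, with a median of -1.14, and all 17 were lower with drug in line 13. The falls are 94.1% of the list, against 16.4% of all genes and 61.1% of genes of at least 100 CPM. The falls numbered 15 without the line term and 14 with library totals, and with FPKM 8 or 10 of 16 fell. Slc2a1 (ENSMUSG00000028645, chr4:119108711-119137983), the glucose transporter GLUT1, stood at 176 and 188 CPM with doxorubicin, against 605 and 448 CPM with vehicle (log2 change -1.51 ± 0.13 (SE), edgeR adjusted p = 1.01e-05). Pgk1 (ENSMUSG00000062070, chrX:106187100-106203699), phosphoglycerate kinase, stood at 98.2 and 100.2 CPM with doxorubicin, against 269.6 and 270.5 CPM with vehicle (log2 change -1.45 ± 0.13 (SE), edgeR adjusted p = 1.31e-05). Ldha (ENSMUSG00000063229, chr7:46841475-46855627), which makes lactate, stood at 488 and 466 CPM with doxorubicin, against 1101 and 1155 CPM with vehicle (log2 change -1.24 ± 0.13 (SE), edgeR adjusted p = 2.89e-05). For each, both vehicle libraries were more than 1 on the log2 scale above their drug-treated partners. Pfkp, a phosphofructokinase, had 308 and 446 CPM with doxorubicin, against 876 and 895 CPM with vehicle (log2 change -1.25 ± 0.15 (SE), edgeR adjusted p = 6.77e-05), and Hk2, a hexokinase, had 270.0 and 254 CPM with doxorubicin, against 659.8 and 506 CPM with vehicle (log2 change -1.14 ± 0.10 (SE), edgeR adjusted p = 1.49e-05). Among targets of hypoxia-inducible factors outside glycolysis, Bnip3, a mitophagy receptor, had 30.1 and 62.1 CPM with doxorubicin, against 174 and 190.5 CPM with vehicle (log2 change -2.06 ± 0.19 (SE), edgeR adjusted p = 1.47e-05). Vegfa, the vascular growth factor, had 51.6 and 74.9 CPM with doxorubicin, against 182 and 176 CPM with vehicle (log2 change -1.52 ± 0.14 (SE), edgeR adjusted p = 1.67e-05). Egln1, the oxygen-dependent prolyl hydroxylase, had 43.0 and 33.8 CPM with doxorubicin, against 126 and 74.0 CPM with vehicle (log2 change -1.35 ± 0.11 (SE), edgeR adjusted p = 9.92e-06). All 8 had vehicle values above drug values without overlap. Sterol synthesis, another metabolic list, had 1 rise and 5 falls among 17, all tested. These are 5.88% and 29.4% of the list, against 21.6% and 16.4% of all genes. With library totals the list had 6 rises and 1 fall, and without the line term no rise and 2 falls.

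**Figure D3:**
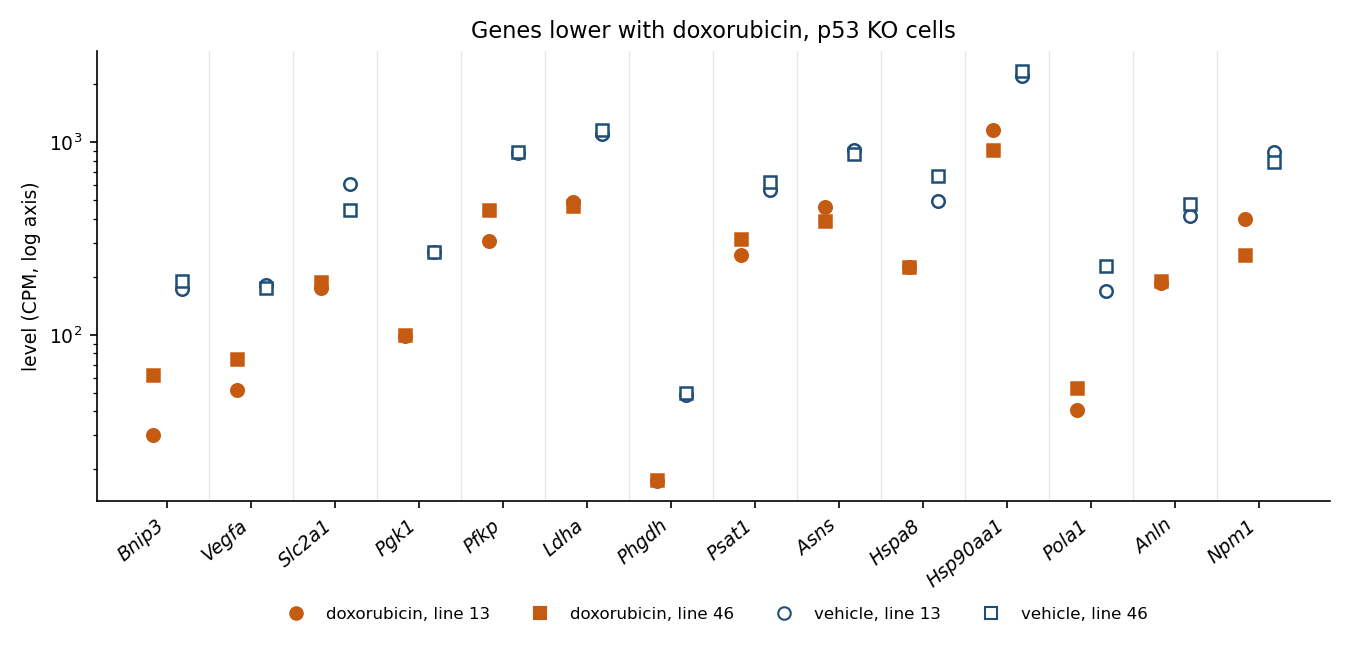
Level (CPM, log axis) of 14 genes of glycolysis and hypoxia, the ATF4 response, chaperones, DNA replication and the nucleolus in p53 KO cells. The layout is that of the interferon plot, with drug-treated libraries (filled) left of vehicle libraries (open), circles for line 13 and squares for line 46. Both filled points lie below both open points in every gene shown, from Phgdh, at 17.4 and 17.6 CPM against 48.9 and 50.1 CPM, to Hsp90aa1, at 1156 and 911 CPM against 2226 and 2343 CPM.

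Most called changes of cell-cycle genes were falls. Of 31 genes of the G1/S step and replication, 3 rose and 18 fell, with a median of -0.40, and of 26 genes of mitosis 1 rose and 12 fell, with a median of -0.25. All were tested. The falls are 58.1% and 46.2% of these lists, against 16.4% of all genes and the 61.1% given above for genes of at least 100 CPM. Without the line term 7 replication genes and 10 mitosis genes fell. Pola1 (ENSMUSG00000006678, chrX:93304767-93632155), the catalytic subunit of DNA polymerase alpha, stood at 40.6 and 52.7 CPM with doxorubicin, against 168 and 228 CPM with vehicle (log2 change -2.08 ± 0.09 (SE), edgeR adjusted p = 5.96e-07), the smallest p of any fall. Gins1, a part of the replicative helicase, had 47.6 and 33.9 CPM with doxorubicin, against 83.8 and 72.4 CPM with vehicle (log2 change -0.95 ± 0.12 (SE), edgeR adjusted p = 8.43e-05). Anln, an organiser of the cleavage furrow, had 187 and 190.1 CPM with doxorubicin, against 416 and 476 CPM with vehicle (log2 change -1.24 ± 0.10 (SE), edgeR adjusted p = 9.65e-06). Groups did not overlap in any of the 3. Top2a, the drug's own target in dividing cells, had 1106 and 918 CPM with doxorubicin, against 1469 and 1386 CPM with vehicle (log2 change -0.50 ± 0.11 (SE), edgeR adjusted p = 0.00438), and Top1 had 112 and 92.6 CPM with doxorubicin, against 175 and 152 CPM with vehicle (log2 change -0.68 ± 0.10 (SE), edgeR adjusted p = 2.35e-04). The call of Top2a was lost with library totals and that of both with FPKM. Ccnd1, cyclin D1, rose and had 88.0 and 98.5 CPM with doxorubicin, against 44.2 and 62.7 CPM with vehicle (log2 change 0.82 ± 0.13 (SE), edgeR adjusted p = 3.77e-04). These falls hinge on scaling: with library totals 6 of the replication genes rose and 7 fell, 4 of the mitosis genes rose and 6 fell, and the median of the mitosis list was 0.087. Of 37 DNA repair and checkpoint genes, all tested, 2 rose and 18 fell, against 9 and 8 with library totals, where the median was 0.091, and 1 and 11 without the line term. The 18 falls are 48.65% of the list, against the same 16.4% and 61.1%. Xrcc5, the KU80 end-binding subunit, had 104 and 132 CPM with doxorubicin, against 213 and 298 CPM with vehicle (log2 change -1.10 ± 0.10 (SE), edgeR adjusted p = 1.23e-05). Msh6, of mismatch repair, had 306 and 322 CPM with doxorubicin, against 496 and 672 CPM with vehicle (log2 change -0.88 ± 0.11 (SE), edgeR adjusted p = 9.85e-05). Nbn, of the MRN complex, had 36.5 and 24.1 CPM with doxorubicin, against 60.8 and 63.4 CPM with vehicle (log2 change -1.06 ± 0.14 (SE), edgeR adjusted p = 1.49e-04). Brca2 rose and had 139.9 and 150.2 CPM with doxorubicin, against 98.0 and 106 CPM with vehicle (log2 change 0.51 ± 0.09 (SE), edgeR adjusted p = 0.00117).

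Part of the nucleolar and histone genes fell. Of 25 genes of ribosome biogenesis, all tested, 4 rose and 13 fell with TMM, and 10 rose and 7 fell with library totals. The 13 falls are 52% of the list, against 16.4% of all genes and 61.1% of genes of at least 100 CPM. Npm1, nucleophosmin, had 402 and 260.1 CPM with doxorubicin, against 891 and 788 CPM with vehicle (log2 change -1.37 ± 0.12 (SE), edgeR adjusted p = 1.12e-05). Ncl, nucleolin, had 1086 and 1136 CPM with doxorubicin, against 1970.0 and 2554 CPM with vehicle (log2 change -1.01 ± 0.11 (SE), edgeR adjusted p = 4.49e-05). Rrp12, a factor of ribosome export, rose and had 111 and 106 CPM with doxorubicin, against 78.4 and 71.4 CPM with vehicle (log2 change 0.54 ± 0.10 (SE), edgeR adjusted p = 0.00105). Npm1 and Ncl were higher with vehicle in both lines, Rrp12 lower. Of 51 replication-dependent histone genes, 49 were tested, none rose, 16 fell (32.6%) and 33 were not called, with a median of -1.12. Hist1h2ap had 15.4 and 22.6 CPM with doxorubicin, against 77.7 and 57.4 CPM with vehicle (log2 change -1.83 ± 0.22 (SE), edgeR adjusted p = 7.55e-05), and Hist1h1a, a linker histone, had 1.94 and 0.785 CPM with doxorubicin, against 6.43 and 3.00 CPM with vehicle (log2 change -1.81 ± 0.32 (SE), edgeR adjusted p = 8.50e-04). Transcripts of these genes normally lack a poly(A) tail, so poly(A) libraries see a minor share of them, and copies within the clusters are near-identical. With library totals 2 rose and 13 fell, and without the line term 6 fell and Hist1h1a lost its call. Rn7sk, the 7SK RNA that restrains transcription elongation and also lacks a tail, was not called and had 1.46 and 9.78 CPM with doxorubicin, against 7.68 and 0.732 CPM with vehicle, lower with drug in line 13 and higher in line 46.

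Classes of noncoding genes did not move together. Of 245 small nucleolar RNA genes tested, none rose and 51 fell (20.8%, against 16.4% of all genes), but 239 of them lie within or across another gene, and the counts span introns. Of 2501 lincRNA genes 609 rose and 101 fell, with a median of 1.21, and of 2706 processed pseudogenes 123 rose and 701 fell, with a median of -0.31. The lincRNA rises are 24.4% of the class, near the 21.6% of all genes, and its falls 4.04%, and the pseudogene falls are 25.9%. Pseudogenes share reads with their parent genes. Gene length showed a weaker pattern. Among protein-coding genes of at least 2 CPM in either group, 34.79% of the quartile with the longest spans fell, against 19.47% of the quartile with the shortest, whereas 44.51% of the 182 genes over 500 kb rose.

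The 3 largest rises of protein-coding genes under the naming rule were the interferon-stimulated Tgtp1, Tgtp2 and Isg15, given above, with fitted log2 changes of 6.43, 6.35 and 6.24 from few vehicle counts. Other genes are named for a large change or a small p. Crispld2 (ENSMUSG00000031825, chr8:119992438-120052793), a secreted lipopolysaccharide-binding protein, stood at 80.0 and 43.9 CPM with doxorubicin, against 5.34 and 1.67 CPM with vehicle (log2 change 4.26 ± 0.24 (SE), edgeR adjusted p = 1.74e-06). Ccdc190 had 13.2 and 11.6 CPM with doxorubicin, against 0.219 and 0.3995 CPM with vehicle (log2 change 5.29 ± 0.37 (SE), edgeR adjusted p = 3.86e-06). Slc13a5, the citrate carrier of the cell surface, had 56.9 and 72.9 CPM with doxorubicin, against 14.4 and 21.6 CPM with vehicle (log2 change 1.87 ± 0.11 (SE), edgeR adjusted p = 2.50e-06). Each of the 3 was higher with drug in both lines. Lamb2, a laminin subunit, had 157 and 112 CPM with doxorubicin, against 56.2 and 38.4 CPM with vehicle (log2 change 1.51 ± 0.09 (SE), edgeR adjusted p = 2.50e-06), Npnt, a matrix ligand of integrins, had 16.1 and 34.0 CPM with doxorubicin, against 2.78 and 6.99 CPM with vehicle (log2 change 2.38 ± 0.12 (SE), edgeR adjusted p = 8.52e-07), and Efemp1, a fibulin, had 5.20 and 6.28 CPM with doxorubicin, against 0.439 and 0.133 CPM with vehicle (log2 change 4.34 ± 0.35 (SE), edgeR adjusted p = 8.13e-06). Steap3, an endosomal iron reductase, had 48.3 and 83.9 CPM with doxorubicin, against 14.5 and 25.1 CPM with vehicle (log2 change 1.74 ± 0.09 (SE), edgeR adjusted p = 1.36e-06). Among the falls, Ccng2, a cyclin linked to arrest, had 10.96 and 15.5 CPM with doxorubicin, against 57.7 and 44.3 CPM with vehicle (log2 change -1.95 ± 0.20 (SE), edgeR adjusted p = 2.71e-05). Eif4a2, a helicase of translation initiation, had 318 and 234 CPM with doxorubicin, against 934 and 1172 CPM with vehicle (log2 change -1.94 ± 0.16 (SE), edgeR adjusted p = 7.56e-06), although 7 other genes overlap its span. Scaper had 6.49 and 15.0 CPM with doxorubicin, against 32.5 and 48.7 CPM with vehicle (log2 change -1.99 ± 0.16 (SE), edgeR adjusted p = 8.13e-06). The chromatin regulators Kat6b and Kdm4c were among the 10 falls with the smallest p. Kat6b, a histone acetyltransferase, had 79.1 and 81.9 CPM with doxorubicin, against 239 and 281 CPM with vehicle (log2 change -1.69 ± 0.10 (SE), edgeR adjusted p = 2.50e-06). Kdm4c, a histone demethylase, had 33.8 and 41.6 CPM with doxorubicin, against 101 and 111 CPM with vehicle (log2 change -1.50 ± 0.09 (SE), edgeR adjusted p = 2.71e-06).

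The p53 KO response was next set against that of wild-type cells through the difference between the responses, tested in the same model. Wild-type cells had 9958 genes called higher (34.8%) and 8497 lower (29.7%), 64.4% in either direction. The p53 KO response minus the wild-type response was called above 0 in 5660 genes (19.8%) and below 0 in 5136 (17.9%), 37.7% in either direction. Of the 6180 p53 KO rises, 3994 were also rises in wild-type cells, which is 64.63% of the p53 KO list and 40.11% of the wild-type list, and 641 were falls there. Of the 4696 p53 KO falls, 3469 were also wild-type falls, which is 73.87% and 40.83% of the lists, and 452 were rises there. For 3264 of the p53 KO rises and 2408 of the falls, the difference between genotypes was not called. A difference that is not called does not show that the responses were alike.

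**Figure D4:**
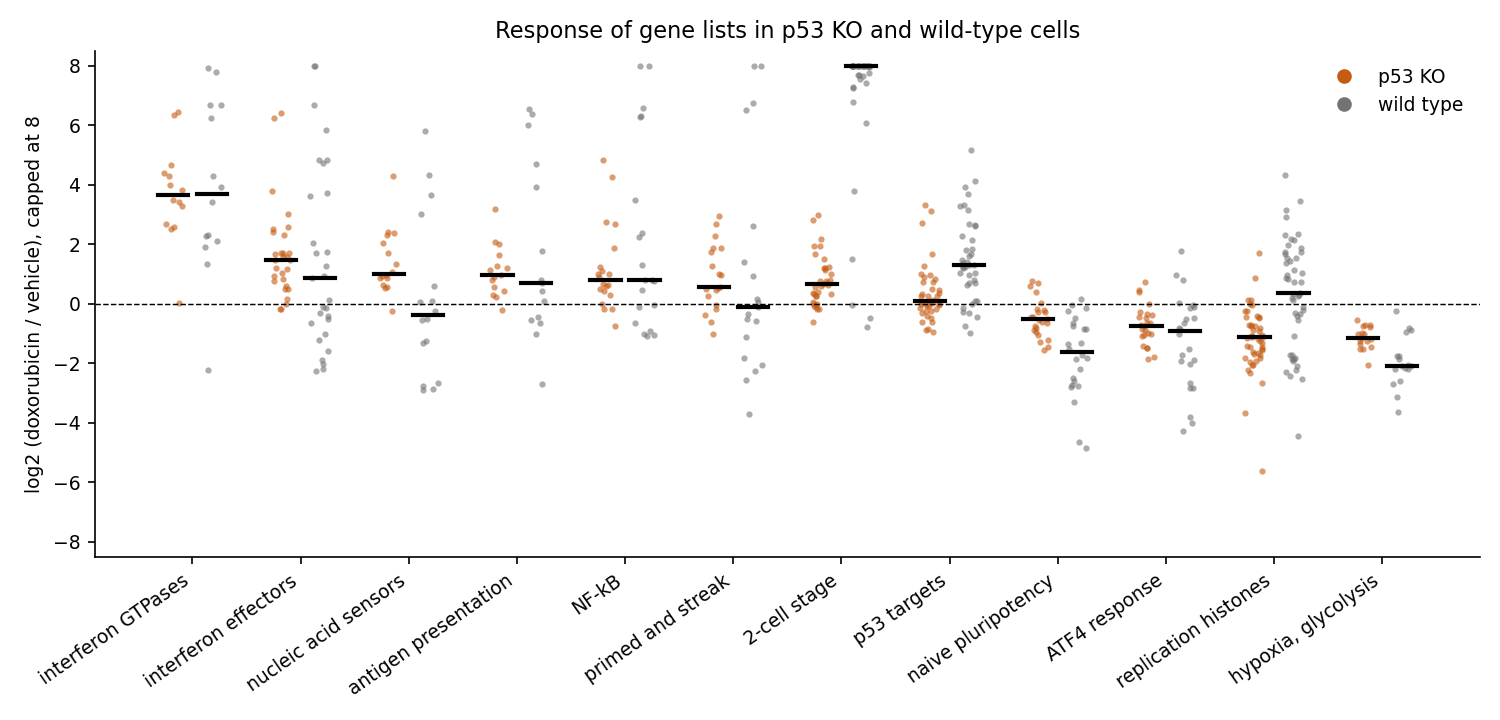
Fitted log2 change with doxorubicin for each tested member of 12 gene lists, in p53 KO cells (left of each pair) and wild-type cells (right). Points are genes, bars are medians and the dashed line is 0, with values beyond 8 drawn at 8. The medians of GTPases were 3.64 in p53 KO and 3.68 in wild-type cells, of sensors 1.01 and -0.38, of 2-cell genes 0.66 and 8.09, and of hypoxia and glycolysis genes -1.14 and -2.09.

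Differences from wild type were counted in each interferon list, with no test between lists. For the effectors, the difference was called above 0 in 10 of 29 and below 0 in 5, for antigen presentation in 4 and 5 of 15, and for the signalling chain in 6 and 5 of 20. For the GTPases, the difference was called above 0 in 2 genes and below 0 in 1 of 14, and the medians were 3.64 in p53 KO and 3.68 in wild-type cells. For the sensors it was called above 0 in 11 of 16 and below 0 in none, with medians of 1.01 in p53 KO and -0.38 in wild-type cells. Oasl1, a sensor-family protein, stood at 11.5 and 6.78 CPM with doxorubicin, against 5.04 and 3.53 CPM with vehicle, in p53 KO cells, and at 0.193 and 0.399 CPM with doxorubicin, against 2.33 and 2.02 CPM with vehicle, in wild-type cells. Its response difference was 3.94 ± 0.45 (SE, edgeR adjusted p = 2.92e-05). Oas1a had 71.6 and 45.2 CPM with doxorubicin, against 37.5 and 39.95 CPM with vehicle, in p53 KO cells, and 5.21 and 3.92 CPM with doxorubicin, against 29.2 and 28.9 CPM with vehicle, in wild-type cells (difference 3.22 ± 0.25, adjusted p = 1.55e-06 in edgeR). Both genes were thus higher with drug without p53 and lower with drug in wild-type cells. The p53 KO rises of this pair were small, and their calls were lost without the line term. Parp14 showed the same opposition with a larger rise, at log2 changes of 3.01 in p53 KO and -1.21 in wild-type cells (difference 4.22 ± 0.38, edgeR adjusted p = 4.13e-06). Dtx3l followed at 1.70 and -1.91 (difference 3.61 ± 0.34, edgeR adjusted p = 6.34e-06), and Parp9 at 1.19 and -1.60 (difference 2.79 ± 0.22, edgeR adjusted p = 1.75e-06).

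Opposite responses were also found in signalling and cell-cycle genes. Lefty1 had log2 changes of 2.68 in p53 KO and -1.83 in wild-type cells (difference 4.51 ± 0.40, edgeR adjusted p = 3.95e-06). Lefty2 had 1.74 and -2.05 (difference 3.78 ± 0.19, edgeR adjusted p = 1.05e-07). Ccnd1 had 0.82 and -2.30 (difference 3.12 ± 0.18, edgeR adjusted p = 2.26e-07), and Slc13a5 had 1.87 and -1.57 (difference 3.44 ± 0.16, edgeR adjusted p = 7.24e-08). In the other direction, Cdkn1a had -0.94 in p53 KO and 1.25 in wild-type cells (difference -2.19 ± 0.16, edgeR adjusted p = 8.80e-07), and Mcl1 had -0.74 and 0.74 (difference -1.49 ± 0.17, edgeR adjusted p = 2.92e-05). Of the 40 p53 targets, the difference was called below 0 in 31 and above 0 in 3. Of 24 naive pluripotency genes it was called above 0 in 18 and below 0 in none, so the falls were smaller without p53 for most of them, and of 17 hypoxia and glycolysis genes it was called above 0 in 13 and below 0 in 1. The exception was Slc2a1, which fell more in p53 KO cells, with log2 changes of -1.51 and -0.89 (difference -0.63 ± 0.18, edgeR adjusted p = 0.014). Ddit4 fell in p53 KO cells and had 0.03 in wild-type cells (difference -1.88 ± 0.25, edgeR adjusted p = 9.49e-05), and Hspa8 had -1.35 in p53 KO and -0.07 in wild-type cells (difference -1.28 ± 0.17, edgeR adjusted p = 8.12e-05).

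**Figure D5:**
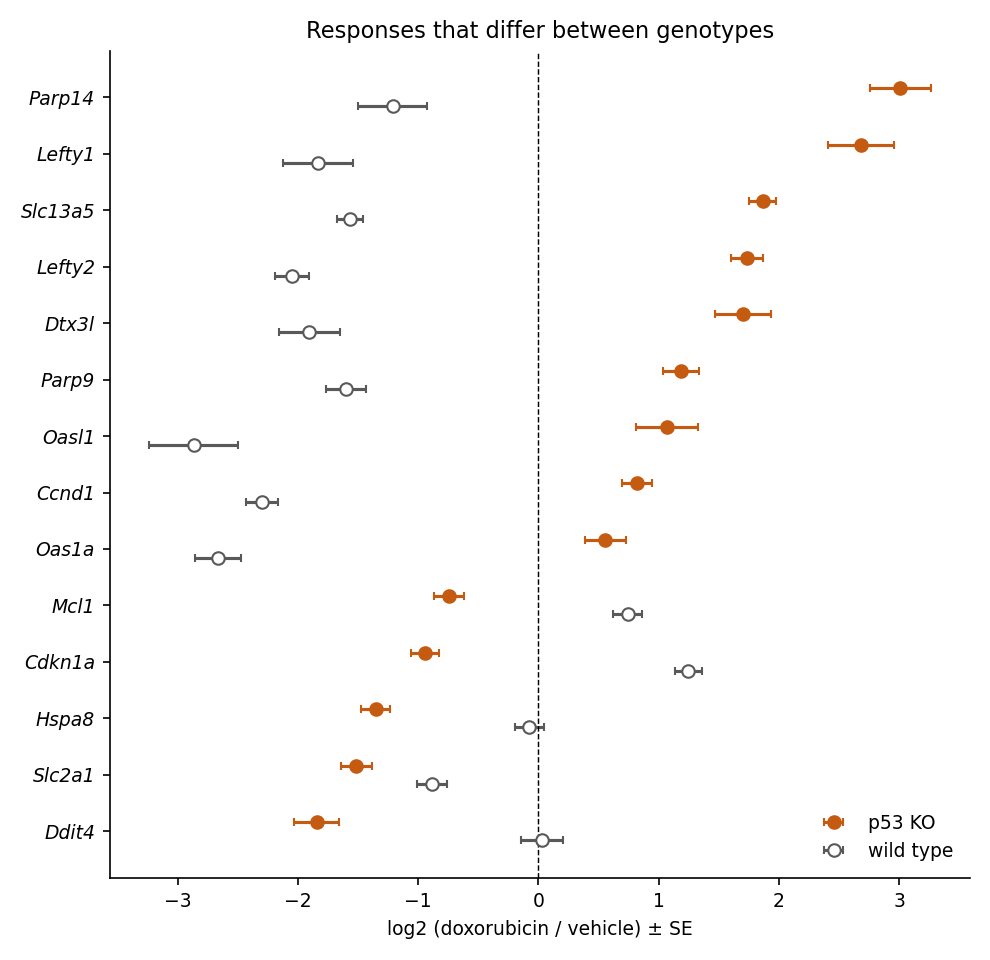
Log2 change with doxorubicin ± SE in p53 KO cells (filled, upper of each pair) and wild-type cells (open, lower) for 14 genes whose response difference was called. Genes run from Parp14, at 3.01 in p53 KO and -1.21 in wild-type cells, to Ddit4, at -1.84 and 0.03. Lefty1, Lefty2, Parp14, Dtx3l, Parp9, Oasl1, Oas1a, Ccnd1 and Slc13a5 are above 0 in p53 KO and below 0 in wild-type cells, and Cdkn1a and Mcl1 are the reverse.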

How the data were processed

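Poly(A) RNA libraries were made with a NEBNext kit, per the labels' protocols. The authors deposited whole-number counts per Ensembl gene, and FPKM values for the same libraries. TopHat2, DESeq, DESeq2 and build mm10 are named in the submitters' processing notes, without versions, and the sources used here give neither the read counter nor its strand setting. The gene length that the deposited count and FPKM imply was within 1% of the whole gene span in 98.4% of 8095 genes, so the deposited counts cover introns. Of counts of at least 500 in the p53 KO libraries, 27.2% to 31.0% were odd, so a count need not be an independent fragment. Reads of genes that overlap cannot be separated, and such counts raise the level of long or intron-rich genes. Names and positions came from GENCODE M21 (GRCm38), which held 54409 of the 54532 identifiers. Another 6 columns of group averages were not used. The count column of 1 Dux KO vehicle library repeated another library in all 54532 genes and was left out, leaving 11 libraries.

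The deposited counts were fitted with edgeR 4.0.16 (R 4.3.3): TMM scaling, filterByExpr by group (minimum count 10), a mean per group with the line as a block within each knockout, glmQLFit, then glmQLFTest, with p adjusted by Benjamini-Hochberg over 28643 genes and called under 0.05. All libraries shared 1 estimate of the spread, with 3 residual degrees of freedom, which come from the p53 KO and wild-type libraries. With the repeated column left out, the Dux KO groups have as many fitted terms as libraries and add none. The line numbers in the column headers pair the p53 KO libraries because each number is 1 cell line, and deviations of same-line libraries from their group means had an r of 0.434 over 28643 genes. The difference between genotypes was the interaction in the same model. The change per line used log2 CPM with a pseudocount of 0.1 CPM. Each library holds 23270358 to 32807053 counts in the p53 KO groups. The limit given for Ifnb1 covers counting error only, whereas the SEs include the estimated spread between libraries. Alternatives were no line term, other scalings, other filters, DESeq2 1.42.0, limma 3.58.1 on log2(FPKM + 1) and log2(FPKM + 0.1), overlapping genes left out, fewer libraries in the fit, and each library left out. The members and the 35 gene lists were chosen with earlier results of these data known. Named genes are list members, Trp53, the 15 largest protein-coding and 5 largest other changes each way of at least 2 CPM with the same sign in both lines, the 10 smallest p each way, and the 8 largest differences each way, and Rn7sk and the genes that moved in opposite directions in the lines were chosen after their values were seen. Promoters are 300 bases (250 before to 50 after the start) from RefSeq. They were matched by Ensembl identifier, or by symbol where that gave no tested gene, for 16138 of the tested genes.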

Additional observations from a re-analysis of the deposited data

Results flagged for a closer look

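For 18 genes named above, the response to doxorubicin was called in opposite directions in p53 KO and wild-type cells, and the difference between the responses was itself called in edgeR's interaction test. The values below are the p53 KO response minus the wild-type response on the log2 scale.

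Among interferon, antigen-presentation and related genes, it was 4.22 for Parp14, 3.94 for Oasl1, 3.61 for Dtx3l, 3.22 for Oas1a, 2.79 for Parp9, 1.35 for Tapbp and 1.16 for Eif2ak2. All 7 rose in p53 KO and fell in wild-type cells. Among genes of pluripotency, the primed state and Nodal signalling, it was 4.69 for Otx2, 4.51 for Lefty1, 3.78 for Lefty2, 2.40 for Lin28a, 0.90 for Dnmt3b and 0.83 for Stat3, again with a rise in p53 KO and a fall in wild-type cells. The citrate carrier Slc13a5 gave 3.44, cyclin D1 (Ccnd1) gave 3.12 and Brca2 gave 1.06, in the same direction. The reverse was found for Cdkn1a, at -2.19, and Mcl1, at -1.49, which fell in p53 KO and rose in wild-type cells. Over all genes, 641 of 6180 p53 KO rises were called falls in wild-type cells and 452 of 4696 p53 KO falls were called rises.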

How the results depend on the processing

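The number of calls depended on the treatment of the lines, the scaling and the unit. Without the replicate block, 2668 genes rose and 2318 fell in p53 KO cells, and the response difference was called above 0 in 2837 and below 0 in 2961. Library totals gave 10778 and 1993 for the response (84.4% of calls higher, against 56.8% with TMM) and 7309 and 4107 for the difference, which moved the share of calls above 0 to 64.0%, against 52.4% with TMM. With limma on FPKM, over 14614 genes, 3172 rose and 943 fell at a pseudocount of 1, and 3310 rose and 862 fell at 0.1, and 2367 and 2210 differences were below 0. With overlapping genes left out, over 12549 genes, the counts were 2579 and 1982 for the response and 2416 and 2267 for the difference. Leaving out 1 p53 KO library at a time with the block kept, which rests the response on the other line, gave 3760 to 4352 rises and 3206 to 4096 falls, against 6180 and 4696 with all. Without the block, leaving out vehicle line 13, vehicle line 46, drug line 13 and drug line 46 gave 1846, 1724, 2312 and 2836 rises, 1972, 1673, 2567 and 2006 falls, 2706, 2872, 2802 and 3266 differences above 0, and 2590, 2959, 3555 and 3076 below 0. Over all fits that left out a library, differences above 0 ran from 2706 to 5482 and below 0 from 2590 to 4623. Scaling by RLE, other filters, DESeq2 and fewer libraries kept these counts within 1.5 times of the main ones. The balance still moved. With only the p53 KO libraries 48.6% of the response calls were higher, and with DESeq2 50.6%, against 56.8% in the main fit.

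Of 124 called genes named in the report, 1 turned its sign, Dazl, at 0.011 without the line 46 vehicle library and the line term, and 77 kept the call in every alternative that tested them. Without the line term 14 lost it: Dazl, Dnmt3b, H2-D1, H2-K1, Hist1h1a, Mdm2, Mx2, Nfkbia, Oas1a, Oasl1, Otx2, Tcstv3, Tmem173 and Xaf1. With FPKM, Dazl, Ephx1, Hk2, Pou5f1, Smad7, Sox2, Tcstv3, Tet2, Top1, Top2a or Zfp750 lost it at 1 or both pseudocounts. Trp53, not called in the report, was called higher with library totals (0.58) and with FPKM (0.55 at 0.1, 0.47 at 1). Changes of genes below 1 CPM rest on few counts, and 2 libraries per group limit all tests. A fit that leaves out a p53 KO library holds 1 library in a group. With the line block kept it has no replicate within p53 KO, and its calls take their spread from the wild-type libraries. The causes were not tested.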

Other observations

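A set of ribosomal and other structural RNAs, which normally carry no poly(A) tail, differed in opposite directions in the p53 KO lines. The set was chosen for that pattern after the values were seen, so its values are a description. Of the 16654 genes of at least 2 CPM, 21 were lower with drug by more than 1.2 on the log2 scale in line 13 and higher by more than 1.2 in line 46, and 1, Usp17lb, showed the reverse. None of the 21 was called in the p53 KO response by edgeR, and what sets these libraries apart was not tested.

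The ribosomal RNA gene CT010467.1 had 359 and 4452 CPM with doxorubicin, against 3802 and 977 CPM with vehicle, for line 13 and then line 46. Gm42418, a noncoding gene that overlaps ribosomal sequence, had 261 and 3104 CPM with doxorubicin, against 2695 and 720.3 CPM with vehicle. Rn7s1, a copy of the 7SL RNA of the signal recognition particle, had 1.11 and 19.3 CPM, against 21.7 and 2.00 CPM. Rmrp, the RNA of an RNA-processing ribozyme, had 0.0694 and 9.99 CPM, against 7.31 and 0.533 CPM. The high libraries were line 46 with drug and line 13 with vehicle in each case. Protein-coding genes in the set were Cmss1, Filip1l, Gphn, Lars2 and Sspn. Filip1l had 30.3 and 342 CPM with doxorubicin, against 245 and 60.6 CPM with vehicle.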
